A study of Mus musculus with 2 samples.

Results

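Endothelial cells with Ptprb but little Stab2, the vessel cells that fall outside the sinusoidal class, numbered 184 of 18786 barcodes kept in liver tumours of mice, 132 in the Crtc2+/+ library and 52 in the Crtc2-/- library. They were chosen on raw unique molecular identifier (UMI) counts, where 1 UMI stands for 1 captured transcript. Barcodes were considered from 500 UMIs and 250 genes upwards, with mitochondrial UMIs of 20% or less. A member needed at least 1 UMI of Ptprb and at least 3 UMIs over Cdh5, Egfl7, Pecam1 and Flt1. It could have at most 1 UMI of Stab2, at most 9 over C1qa, C1qb and C1qc, and none of Clec4g, Cd3d, Cd3e, Cd3g or Cd79a. Those 14 genes set the choice, so their levels are given as description only. The cells were compared with barcodes of the same library that passed the same endothelial, C1q, Cd3 and Cd79a gates but had at least 2 UMIs of Stab2, here called Stab2>=2 cells.

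Both libraries came from tumours dissected from liver, one from Crtc2+/+ mice and one from Crtc2-/- mice. Crtc2 is a coactivator through which cyclic AMP signals act on CREB. Mice of both genotypes received diethylnitrosamine (DEN), a liver carcinogen, as 25 mg/kg injected into the peritoneum at an age of 2 weeks, and a NASH diet, which brings on fatty liver disease, from week 8 to week 26. How the allele was made, the background strain and how many mice or tumours entered each suspension are not stated by the labels. With 1 library per genotype, no difference between the genotypes has a replicate check, and the genotype cannot be told apart from anything else that differed between the 2 suspensions. No p-values are given. Intervals are exact 95% Poisson intervals for sums of UMIs and exact 95% Clopper-Pearson intervals for shares of cells, and cover counting error only. Pairs of values give the Crtc2+/+ library first.

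The libraries held 9707 and 9242 barcodes and 81487425 and 78040008 UMIs, with a median of 7261 and 6749 UMIs in the 9612 and 9174 kept barcodes. Crtc2 itself had 650 and 436 UMIs over all kept barcodes. That is 7.99 (7.39 to 8.63) and 5.59 (5.08 to 6.14) CPM, the count of a gene in each 1000000 UMIs. Transcripts of the targeted gene were therefore still counted in the Crtc2-/- library, and whether the reads at their 3′ ends lie outside the deleted part is not stated. In the member cells Crtc2 had only 15 and 6 UMIs, too few to check the labels there. Most other kept barcodes were leukocytes, and hepatocyte-like barcodes numbered 98 and 132.

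Liver sinusoids are lined by a specialised endothelium that is fenestrated, lacks an organised basement membrane, and carries scavenger receptors such as stabilin-2 (Stab2), the mannose receptor and Lyve1. Arteries, portal and central veins and the vessels of liver tumours are lined by other endothelial cells, which lay down laminin and collagen IV. These cells carry caveolae, and some of them also carry diaphragms formed by plasmalemma vesicle-associated protein (Plvap). In chronic liver disease and liver tumours such a change of the sinusoidal lining towards a continuous capillary is known as capillarisation. Ptprb is the vascular endothelial protein tyrosine phosphatase, which acts on the receptor Tek and on the junction protein VE-cadherin (Cdh5).

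The endothelial sum of at least 3 UMIs alone was met by 657 (6.84%) and 2432 (26.5%) of the kept barcodes. Of these, 321 and 903 also passed the C1q, Cd3 and Cd79a gates, 120 and 420 of them without a Ptprb UMI. How many of the gated barcodes were endothelial cells was not tested. The member cells made up 41.1% (35.7 to 46.7) of the gated barcodes in the Crtc2+/+ library and 5.76% (4.33 to 7.48) in the Crtc2-/- library. As a share of all kept barcodes they were 1.37% (1.15 to 1.63) and 0.567% (0.424 to 0.743). The Stab2>=2 cells went the other way, with 63 cells or 0.655% (0.504 to 0.838) and 413 cells or 4.50% (4.09 to 4.95). There were thus 2.10 member cells for each Stab2>=2 cell in the Crtc2+/+ library and 0.126 in the Crtc2-/- library. Another 126 and 438 gated barcodes belonged to neither class, most of them without a Ptprb UMI. The depth of the member cells was alike in the 2 libraries, with a median of 8503 UMIs per cell (1224 to 35978) and 8299 UMIs (535 to 29364).

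Cells close to a gate were counted. At the Stab2 gate, 121 and 42 member cells had no Stab2 UMI and 11 and 10 had 1, while 3 and 7 barcodes that otherwise met the rule had exactly 2. At the Ptprb gate, 8 and 18 member cells had a single UMI, and 112 and 372 barcodes failed only for having none. At the endothelial gate, 0 and 4 member cells had the minimum of 3 UMIs. The C1q gate held 3 and 2 member cells with 7 to 9 UMIs, and 1 and 0 barcodes with 10 to 12 were left out by it. Scrublet called 1 member cell a doublet in each library, and both were kept. No member barcode occurred among the members of both libraries, although the libraries shared 29 kept barcodes.

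Some members were barcodes rich in leukocyte transcripts, and these weigh differently in the 2 libraries. Over 10 genes of leukocytes (Ptprc, which encodes the common leukocyte antigen CD45, with Cd53, Rac2, Cytip, Coro1a, Laptm5, Dock2, Lsp1, Lcp1 and Fyb) 4 of the 132 Crtc2+/+ members had 29 to 86 UMIs and the other 128 at most 8. In the Crtc2-/- library 13 of 52 members, 25% (14 to 38.9), had 48 to 252 UMIs and the other 39 at most 5. No barcode lay between these ranges. Of the 13, 10 had no UMI of Cdh5, 12 had a single UMI of Ptprb, 1 had a UMI of Plvap and 5 had Siglech, a receptor of plasmacytoid dendritic cells. All 4 Crtc2+/+ barcodes had Cdh5 and Plvap, and 2 of the 4 had Siglech. Scrublet called 1 of the 4 and 1 of the 13. These barcodes held 6.97% and 35.3% of the member cells' UMIs. Counts and medians over gene lists are therefore given for all members and again without the barcodes above 10 leukocyte UMIs, and levels of single genes without those barcodes unless stated otherwise. Leaving them out was a step chosen after seeing the data, and it leaves 128 and 39 member cells and 61 and 394 Stab2>=2 cells. The 128 and 39 cells are 1.33% (1.11 to 1.58) and 0.425% (0.302 to 0.581) of kept barcodes, with 2.10 and 0.0990 of them per Stab2>=2 cell.

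**Figure D1:**
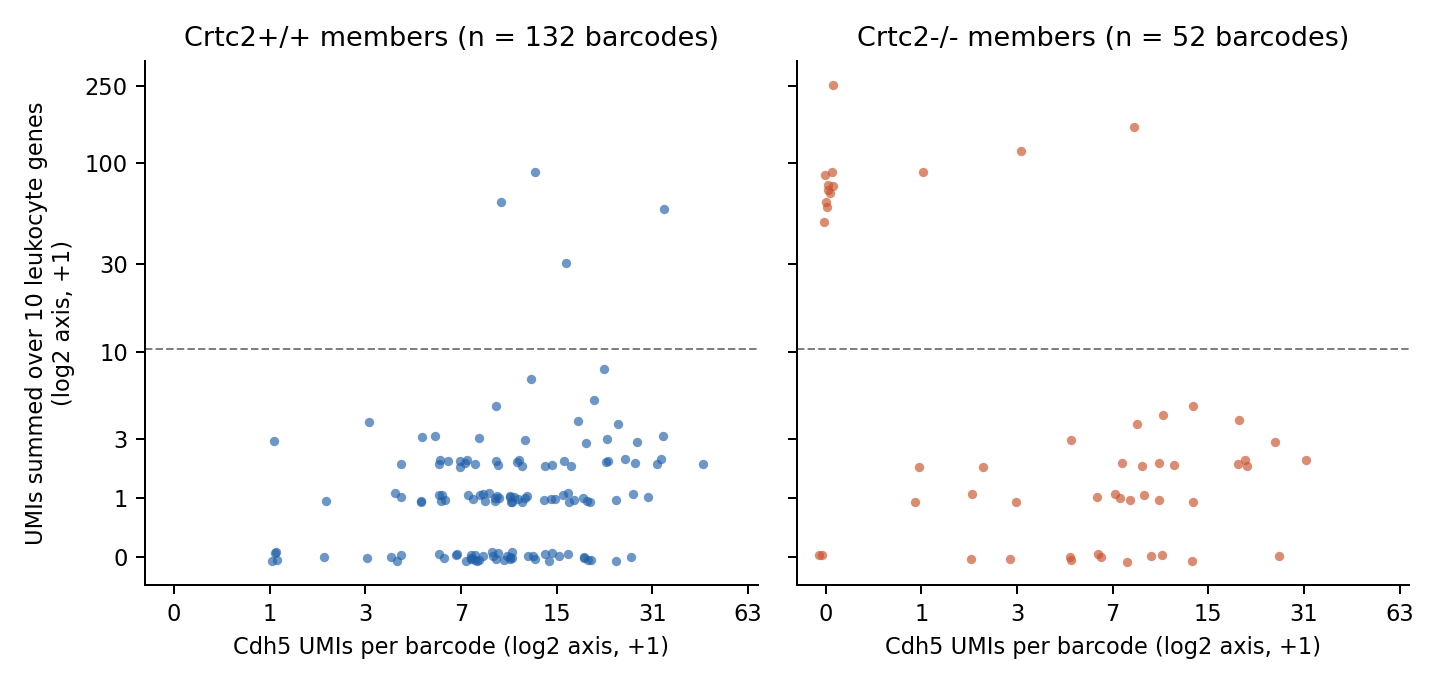
Each point is 1 member barcode, with its Cdh5 UMIs on the x axis and its UMIs summed over 10 leukocyte genes on the y axis (both log2 axes after adding 1; points are jittered), and the dashed line marks the limit of 10 UMIs. In the Crtc2-/- library 13 barcodes lie above the line, 10 of them with no Cdh5, and in the Crtc2+/+ library 4 lie above it, all with Cdh5.

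The marker genes that were not part of the rule were checked next, over the 128 and 39 cells. Levels are CPM of the UMIs of the same cells of a library. Plvap (ENSMUSG00000034845, protein-coding, GRCm38 chromosome 8, 71497765 to 71511752, minus strand) was at 1769.6 (1694 to 1848) and 1404 (1270.3 to 1548) CPM in member cells and at 568 (501 to 642) and 264 (249 to 279) in Stab2>=2 cells. It was found in 125 of 128 and 32 of 39 member cells, with a median of 13 and 6 UMIs per cell. Aplnr, the receptor of the peptide apelin (ENSMUSG00000044338, chromosome 2, 85136225 to 85139923, plus strand), was at 162 (139.6 to 187) and 226 (174 to 288) in member cells against 39.3 (23.3 to 62.2) and 5.18 (3.28 to 7.77). It was carried by a minority of them, 43 and 10 cells, with up to 14 and 23 UMIs in a cell. Vwa1, a basement membrane protein with a von Willebrand factor A domain (ENSMUSG00000042116, chromosome 4, 155768149 to 155774698, minus strand), was at 151 (129 to 175) and 142 (102 to 193) against 4.37 (0.529 to 15.8) and 4.73 (2.93 to 7.23) and was found in 75 and 15 cells. All 5 markers, Ptprb, Cdh5, Plvap, Aplnr and Vwa1, were together in 34 and 5 cells. Over all members the levels of Plvap were 1706 and 931, those of Aplnr 156 and 146 and those of Vwa1 147 and 92.2.

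To compare shares at 1 depth, each cell was thinned to 1000 UMIs, which left out 2 shallower Crtc2-/- member cells. After thinning, 75% (66.6 to 82.2) of Crtc2+/+ and 59.5% (42.1 to 75.2) of Crtc2-/- member cells without leukocyte barcodes had a UMI of Plvap. Among Stab2>=2 cells the thinned shares were 30.2% and 21.8%, and among T cells, which should lack the gene, 0.0505% and 0.0798%. The T cells had median depths of 4721 and 4648 UMIs. The share in T cells gives the level that free RNA reached, and the member cells of both libraries lay above it. Of the 39 Crtc2-/- cells, the shallowest 2, with 535 and 562 UMIs, had neither Cdh5 nor Plvap. The remaining cells without leukocyte barcodes all had Cdh5 or Plvap. Cdh5 counts towards the endothelial gate, so its presence is description only. Plvap, which was not part of the rule, was found in 32 of the 39 cells. Of the 13 leukocyte-rich barcodes of the Crtc2-/- library 1 had Plvap, and the label did not hold for most of them. Whether a cell came from a vessel of the tumour or of liver dissected with it is not stated by the labels.

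The 10 genes of the lymphatic list summed to 208 and 156 CPM in member cells without leukocyte barcodes, most of it from Flt4, the receptor of Vegfc, at 163 and 111. Flt4 and Lyve1, which is also on this list, were higher in Stab2>=2 cells, where the list summed to 1685 and 1347. Pdpn, Ccl21a, Reln and Tbx1, all markers of lymphatic vessels or their development, had no UMI in member cells of either library, which allows up to 2.58 and 10.4 CPM without leukocyte barcodes. Prox1, the transcription factor that specifies lymphatic identity, had 9 UMIs in the Crtc2+/+ library, all in 1 cell, and 1 UMI in the Crtc2-/- library. Of 18 genes of stellate cells, pericytes and fibroblasts, 13 had no UMI, and the summed level of the list was 63.7 and 52.1 CPM.

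Across the genes measured, member cells differed from Stab2>=2 cells in the same direction in both libraries for a limited set. Of 8764 genes with at least 20 UMIs over the 2 populations in each library, 219 (2.5%) were higher in member cells by a log2 ratio of at least 1 in both libraries and 249 (2.84%) were lower. Ratios were taken after adding 10 CPM to each level, which understates the difference of low genes. Without leukocyte barcodes 255 (3%) of 8497 were higher and 286 (3.37%) lower. Beside these backgrounds, 14 of 24 measured genes of tumour capillaries and tip cells were higher, with and without those barcodes, and none was lower. The median of this list, taking for each gene the ratio nearer to 0, was 1.14 on the log2 scale over all members and 1.45 without leukocyte barcodes, against 0.00 for all genes in both. Of the 19 measured sinusoidal genes 18 were lower and none higher, with medians of -3.17 and -3.64.

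The 10 genes with the highest ratios in member cells in both libraries were Igfbp3, Dkk2, Cd200, Lamb1, Rbp7, Pcsk5, Vwa1, Rgcc, Cavin3 and Stc1, with log2 ratios in the library nearer to 0 of 2.65 to 3.60. Their intervals lay apart from those of the Stab2>=2 cells in both libraries for all 10. Igfbp3, a secreted binder of insulin-like growth factors, was the most abundant of them, at 3949.9 (3836 to 4066) and 2359 (2185 to 2544) CPM in member cells against 323 (273 to 380.0) and 30.2 (25.3 to 35.7) in Stab2>=2 cells, a log2 ratio of 3.57 and 5.88. It was found in 85.9% and 61.5% of the member cells. Cd200, a surface protein that engages an inhibitory receptor on myeloid cells, was at 762 (713 to 814) and 702 (608 to 806) against 85.2 (60.6 to 117) and 18.2 (14.5 to 22.7). Dkk2, a secreted modulator of Wnt signalling, was at 199.8 (175 to 227) and 198 (150.0 to 257) and all but missing from the Crtc2-/- Stab2>=2 cells, with levels there of 10.9 (3.55 to 25.5) and 0.225 (0.00570 to 1.25). Rbp7, a retinol-binding protein of capillary endothelium, was at 139 (119 to 163) and 208 (159 to 268) against 2.19 (0.0553 to 12.2) and 1.35 (0.496 to 2.94). In each library the interval of the member cells lay above that of the Stab2>=2 cells.

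The other genes of this group have various roles. Lamb1, the laminin beta-1 chain, was at 159 (137 to 184) and 156 (114 to 209) in member cells against 8.74 (2.38 to 22.4) and 3.83 (2.23 to 6.13). Pcsk5, a proprotein convertase, was at 86.1 (70.1 to 105) and 156 (114 to 209) against 2.19 (0.0553 to 12.2) and 1.35 (0.496 to 2.94). Cavin3, a coat protein of caveolae, was at 631 (586 to 679) and 569.9 (486 to 664) against 72.1 (49.7 to 101) and 43.7 (37.7 to 50.3). Rgcc, a regulator of the cell cycle, and Stc1, the secreted glycoprotein stanniocalcin-1, were also among the 10. Rgcc was at 303 and 337 against 35 and 7.2, and Stc1 at 191 and 247 against 21.9 and 9.91. Without leukocyte barcodes 8 of the 10 were again among the highest 10, and Ebf1 and Rassf9 took the places of Rgcc and Stc1. Ebf1, a transcription factor known from B cells and also present in other lineages, was at 845 (793 to 899) and 785 (686 to 895) against 96.2 (69.9 to 129) and 25.7 (21.2 to 30.8).

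**Figure D2:**
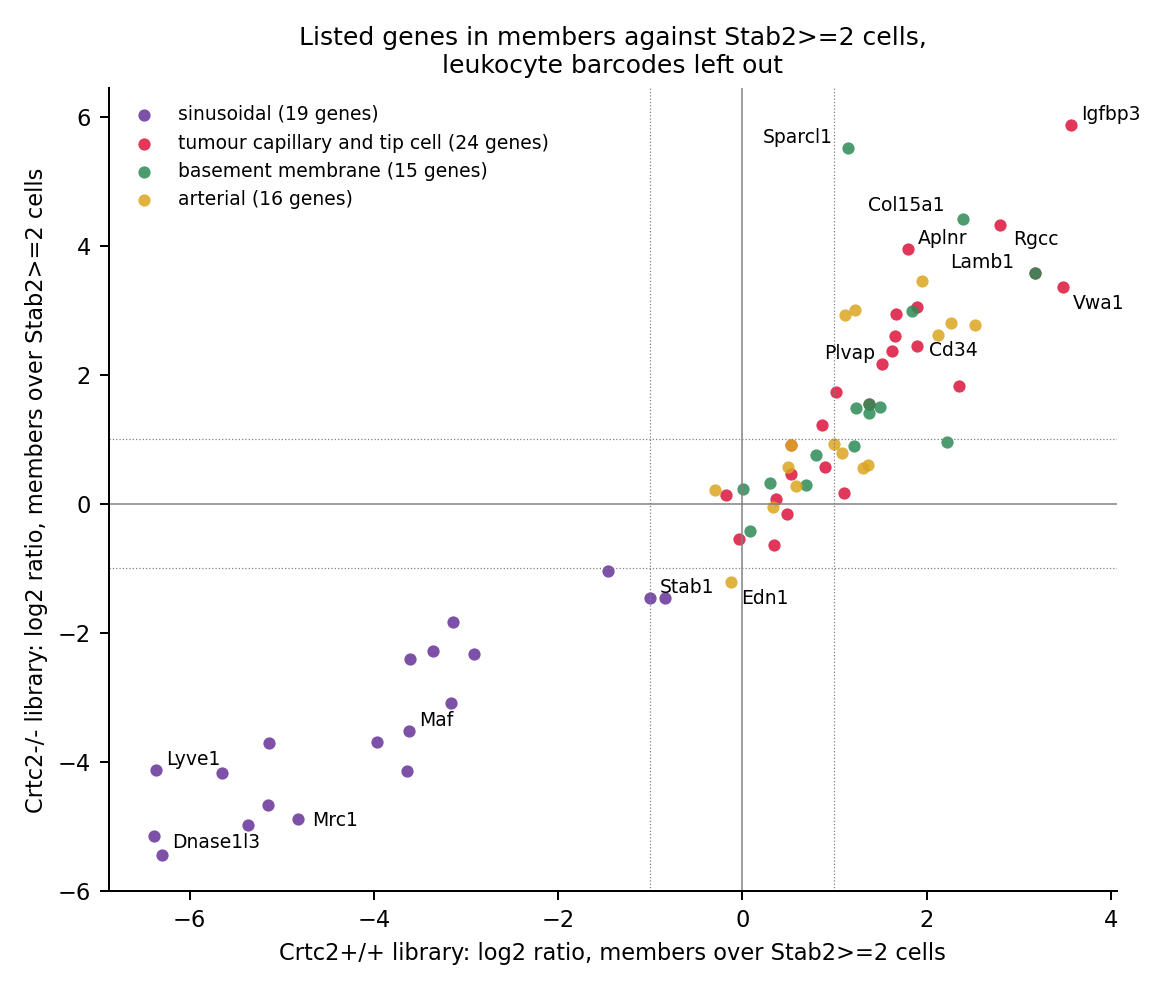
Each point is 1 listed gene, with the log2 ratio of member cells over Stab2>=2 cells in the Crtc2+/+ library on the x axis and in the Crtc2-/- library on the y axis (10 CPM added, leukocyte barcodes left out), coloured by gene list, with dotted lines at log2 ratios of -1 and 1. All 19 sinusoidal genes lie below 0 in both libraries, and Igfbp3 lies at 3.57 and 5.88.

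The 10 genes lowest in member cells in both libraries were Dnase1l3, Bmp2, Adam23, Mrc1, Lyve1, Fcgr2b, Cd55, Aass, Gatm and Gpr182, with log2 ratios nearer to 0 of -5.30 to -3.67. Without leukocyte barcodes 6 of them were again among the lowest 10, and Dpp4, Plxnc1, Clec1b and Oit3 took the places of Cd55, Aass, Gatm and Gpr182. Stab2 was a gate, so low levels of genes that accompany it are described and not read as support for the class. Bmp2, the ligand by which liver endothelium induces hepcidin in hepatocytes, was at 9.47 (4.73 to 16.9) and 10.4 (2.15 to 30.5) CPM in member cells against 793 (714 to 879) and 637 (614 to 661). Mrc1, the mannose receptor, was at 33.6 (23.9 to 45.9) and 34.7 (16.7 to 63.9) against 1228 (1129 to 1334) and 1313 (1279 to 1347). Fcgr2b, the inhibitory Fc receptor that clears immune complexes, was at 4.31 (1.4 to 10) and 17.4 (5.64 to 40.5) against 1117 (1022 to 1218) and 1184 (1153 to 1217). In member cells the intervals of the 2 libraries overlapped for Bmp2, Mrc1 and Fcgr2b. Those of Dnase1l3, a secreted nuclease, and Lyve1, a hyaluronan receptor, lay apart: Dnase1l3 was at 1.72 (0.209 to 6.22) and 24.3 (9.78 to 50.1) and Lyve1 at 5.17 (1.9 to 11.2) and 38.2 (19.1 to 68.4), both higher in the Crtc2-/- member cells yet far below the 968 and 1209 and 1237 and 838 of the Stab2>=2 cells.

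Of the remaining sinusoidal genes, Stab1, the paralogue of Stab2, was less reduced than those genes. It was at 263 (235 to 295) and 250.2 (196 to 315) in member cells against 538 (473 to 609) and 708 (683 to 733), a log2 ratio of -1.0 and -1.46. Gpr182, an atypical chemokine receptor of sinusoids, was at 53.4 (40.9 to 68.4) and 41.7 (21.5 to 72.8) against 780.3 (701 to 866) and 907 (879 to 936). Adam23, a member of the ADAM family, was at 17.2 (10.5 to 26.6) and 3.47 (0.0880 to 19.4) against 1084 (991 to 1184) and 1047 (1017 to 1078).

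Genes of tumour capillaries and tip cells were abundant in member cells of both libraries. Esm1, a proteoglycan of angiogenic tip cells, was at 1495 (1425 to 1567) and 3457 (3246 to 3679) against 516 (452 to 586) and 758 (733 to 784). Apln, the ligand of Aplnr, was at 296 (266 to 329) and 215 (165 to 276) against 87.4 (62.5 to 119) and 27.2 (22.6 to 32.5). Cd34, a sialomucin of capillary endothelium, was at 790.5 (740.2 to 843) and 799 (699 to 909) against 205 (166 to 251) and 138 (128 to 149.6). Within the Stab2>=2 class the 2 libraries were not alike: Igfbp3 was at 323 in the Crtc2+/+ and 30.2 in the Crtc2-/- library, and Plvap at 568 and 264. The larger log2 ratios of the Crtc2-/- library for these genes, such as 1.62 and 2.37 for Plvap, go with those lower levels in its Stab2>=2 cells.

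**Figure D3:**
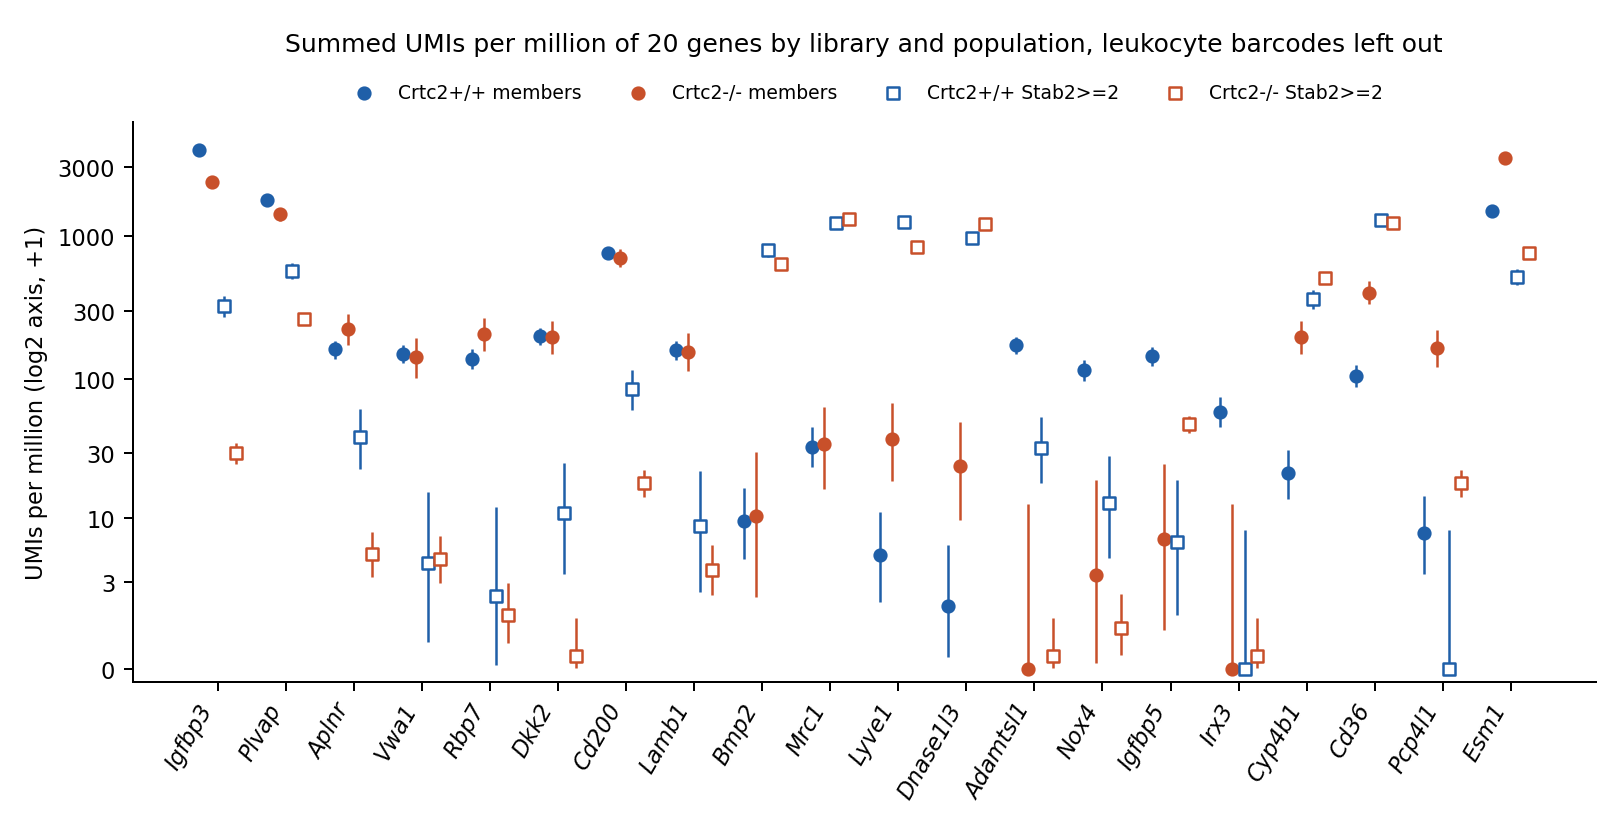
Summed CPM (log2 axis after adding 1) of 20 genes in member cells (filled circles) and Stab2>=2 cells (open squares) of the Crtc2+/+ (blue) and Crtc2-/- (orange) library without leukocyte barcodes; bars are exact 95% Poisson intervals. Igfbp3, Vwa1 and Rbp7 are higher in the member cells of both libraries, Bmp2 and Mrc1 lower, and Adamtsl1 and Irx3 have no UMI in the Crtc2-/- member cells.

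Basement membrane genes were higher in member cells for 5 of 15 measured, and for 8 of 15 without leukocyte barcodes, with medians of 0.85 and 1.14 and none lower. Col4a1, a chain of collagen IV, was at 2850.3 (2754 to 2949) and 2947 (2752 to 3152) in member cells against 1209 (1110.1 to 1314) and 1049 (1019 to 1079.7). Col15a1, a collagen that links basement membranes to the surrounding matrix, was at 169.6 (147 to 195) and 316 (255 to 388) against 24 (12 to 43) and 5.18 (3.28 to 7.77). Sparcl1, a secreted matricellular protein, was at 282 (253 to 315) and 594 (508 to 690.2) in member cells, and its Stab2>=2 levels differed between the libraries, 122 (92.5 to 159) and 3.15 (1.72 to 5.29).

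Arterial genes were higher for 6 of 16 measured in both analyses, with none lower and medians of 0.30 and 0.70. Gja5, the arterial gap junction protein connexin 40, was at 43.9 (32.7 to 57.7) and 156 (114 to 209) against 13.1 (4.81 to 28.5) and 10.6 (7.77 to 14.1). Hey1, a target of Notch in arterial endothelium, was at 69.7 (55.4 to 86.7) and 90.3 (59 to 132) against 6.56 (1.35 to 19.2) and 4.28 (2.58 to 6.68). Cxcl12, the chemokine that binds Cxcr4, was at 47.4 (35.7 to 61.6) and 66 (39.7 to 103) and in Stab2>=2 cells at 0 and 1.13 (0.365 to 2.63), where a count of 0 allows up to 6.56 CPM. Sema3g, a semaphorin of arterial endothelium, was at 110.2 (92 to 131) and 76.4 (47.9 to 116) against 17.5 (7.55 to 34.5) and 4.05 (2.4 to 6.4), and Fbln5, an elastic fibre protein, at 164 (141 to 189) and 122 (84.7 to 169) against 35 (20 to 56.8) and 2.03 (0.926 to 3.85). Venous genes went both ways, with 2 of 14 higher and 4 lower, and without leukocyte barcodes 2 of 13 higher and 5 lower. Among them Ackr3, a scavenging receptor for Cxcl12, was at 206 and 177 against 28.4 and 38.7, and Nr2f2, the transcription factor of venous identity, was at 251 and 170.3 against 835 and 889.

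Caveolar and junction genes also leaned towards the member cells, with 4 of 12 higher, none lower, and medians of 0.39 and 0.55. Cav1, the structural protein of caveolae, was at 377 (343 to 414) and 775 (677 to 884) against 98.4 (71.7 to 132) and 51.6 (45.1 to 58.7). Among the capillary genes of fatty acid uptake 3 of 9 were higher and 2 lower. Fabp4, a fatty acid chaperone, was the most abundant listed gene of the member cells, at 8689 (8521 to 8861) and 14111 (13681 to 14552) against 4363 (4173 to 4558) and 5053 (4987 to 5119.6). Cd36, the fatty acid translocase, was lower in member cells, at 106 (88 to 126) and 403 (333 to 483) against 1294 (1192 to 1403) and 1231 (1199 to 1264).

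In the BMP and TGF-beta list 2 of 17 genes were higher and 2 lower, and without leukocyte barcodes 4 were higher and 2 lower. Acvrl1, a type I receptor for BMP9, was at 158 and 125 against 39.3 and 40.3, and Bmp6, like Bmp2 a ligand of the hepcidin pathway, at 37.9 and 146 against 321 and 369. Of the Wnt list 0 of 10 were higher and 1 lower (2 without leukocyte barcodes), and of the VEGF and angiopoietin list 0 of 9 were higher and 1 lower. Kdr, the main VEGF receptor of endothelium, was at 722 and 1122 against 1327 and 1511. Of the general endothelial genes that were not gated on, 1 of 20 was higher, 2 without leukocyte barcodes, and none lower.

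Interferon-stimulated genes lay slightly above the Stab2>=2 cells. Over all members 21 of 23 were above 0 in both libraries, against 3140 of all 8764 genes measured. Only 3 were past a log2 ratio of 1, and 7 without leukocyte barcodes. The medians were 0.47 and 0.57. Irf7, a transcription factor that amplifies interferon responses, was at 239 and 431 against 72.1 and 89.2, and Ly6a, an interferon-inducible surface protein also carried by many endothelial cells, at 1996 and 2408 against 643 and 896. For antigen presentation, 2 of 10 genes of MHC class I were higher, 1 of 10 without leukocyte barcodes, with a median of 0.51 in both analyses. For MHC class II, 3 of 7 were higher over all members, and 0 of 6 once the leukocyte barcodes, which carry MHC class II, were left out.

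The member cells were not uniform. Clustering all 184 without the rule genes gave 5 groups, which are described by their leading genes. Where their counts by library are given below, they are description only, since the groups were defined on the same cells. The group of 43 cells was arterial-like, since Gja5, Gja4, Sema3g and Nebl of the arterial markers were among its 10 leading genes. Arterial genes summed to 5450 CPM there against 1394 in the remaining members. Gja4 was found in 83.7% and Gja5 in 41.9% of its cells. Detection did not set the group apart, since 18 of 20 arterial markers were detected in it and 17 in the groups of 34 and 80 described next. The group of 34 cells was led by Angpt2, the antagonist ligand of Tek released by activated vessels, with Nox4, Kit, Pgf and Adm, and Angpt2 reached 567 CPM. Hepatocyte genes were also among its leaders, with the hepatocyte list at 1719 CPM against 187 elsewhere, and their part in this group was not tested. Of these, Alb was found in 23.5% and Apoc1 in 41.2% of its cells. The group of 80 cells was led by Bgn, Chst2, Ehd3 and Rarb and held the most Plvap, 2394 CPM. It was left unnamed, since Ehd3 and Mrc1 of its leaders are sinusoidal genes. A group of 10 cells was led by Mki67, Ube2c, Cenpf and Top2a, genes of dividing cells, and the last group was exactly the 17 leukocyte barcodes. Clustering again without those 17 gave 4 groups. The largest, of 64 cells, was led by Adamtsl1, Flrt2, Egfem1 and Rarb. A group of 58 was led by Spp1, Alb, Apoc1 and Trf, with the hepatocyte list at 1688 CPM against 125 in the rest. These 4 leaders were each found in only 20.7% to 24.1% of the 58 cells. Nearly all Crtc2+/+ UMIs of Spp1 lay in a single cell. A group of 20 was again led by Mal, Nebl and Stmn2 with Gja5, Sema3g and Gja4, and a group of 25 by Gfod1, Kit and Angpt2. In that group of 25 the hepatocyte list was at 141 CPM against 631 in the rest. Dividing cells no longer formed a group of their own. The cell cycle list was at 2319 CPM in the group of 64 against 397 in the rest, and Cks2 and Lmnb1 were among that group's 10 leading genes. Mki67 was found in 15.6% of its cells.

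Aplnr and the arterial gene Gja5 were not found in the same cell. None of the 16 Crtc2+/+ and none of the 5 Crtc2-/- cells with Gja5 had a UMI of Aplnr, counts that allow shares of up to 18.8% and 60%. Of the cells without Gja5, 38.4% and 29.4% had Aplnr. Sema3g, by contrast, was found in 81.3% and 80% of cells with Gja5 and in 18.8% and 17.6% of those without. Plvap was found in all cells with Gja5 in both libraries, yet in the group of 20 cells with Gja5 among its leaders it was at 766 CPM against 1850 in the other 3 groups. These shares describe sparse counts, and a cell without a UMI may still carry the transcript.

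**Figure D4:**
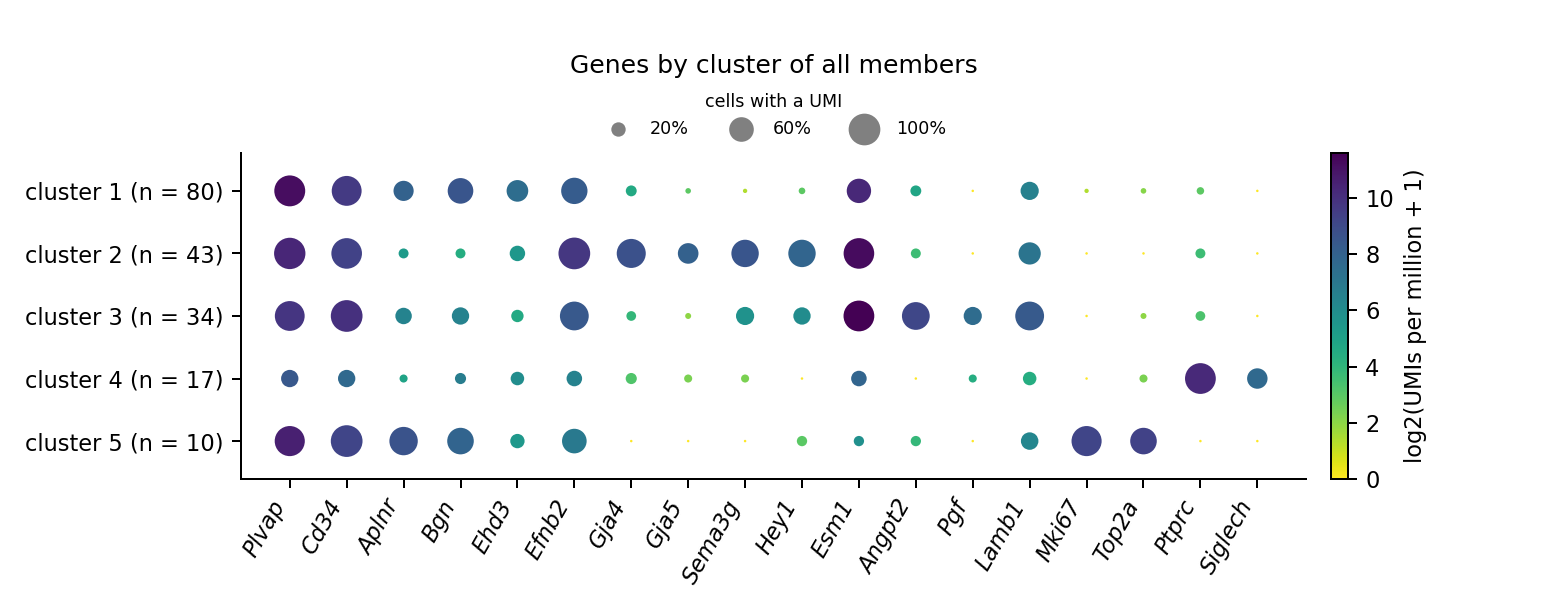
Dots give, for 18 genes (x axis) in the 5 clusters of the 184 members (y axis), the share of cells with a UMI (size) and the summed CPM (colour, log2 after adding 1). Plvap and Cd34 are found in every cluster and are lowest in cluster 4, which holds the 17 leukocyte barcodes with Ptprc, and Gja4, Gja5, Sema3g and Hey1 mark cluster 2.

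Between the libraries, the member cells differed in many genes, and the count depended on the leukocyte barcodes. Of 8943 genes with at least 20 UMIs over the 2 libraries' members, 503 (5.62%) were higher in the Crtc2-/- members by a log2 ratio of at least 1 and 359 (4.01%) lower. Without leukocyte barcodes 114 (1.38%) of 8259 were higher and 355 (4.3%) lower. The Crtc2-/- member cells then held 287781 UMIs in all, so 1 UMI equals 3.47 CPM and a count of 0 allows up to 10.4 CPM. The Crtc2+/+ member cells held 1161296 UMIs. In the clustering without leukocyte barcodes, the group that held the largest share of cells differed between the libraries. The group of 64 led by Adamtsl1 and Flrt2 held 57 of the 128 Crtc2+/+ and 7 of the 39 Crtc2-/- cells, and the group of 58 held 36 and 22. The clusters were built from these genes, so the part of this difference in make-up in the ratios below was not tested.

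The 8 genes with the highest ratio over all members were Ccl4, Ly6c2, Runx2, Mctp2, Dennd4a, Rspo3, Runx1 and Grm8, at log2 ratios of 3.81 to 4.90. Nearly all of their Crtc2-/- UMIs came from the 13 leukocyte barcodes. These held 460 of 467 UMIs of the chemokine Ccl4, 111 of 111 of the monocyte antigen Ly6c2 and 130 of 130 of the haematopoietic transcription factor Runx1. They also held 99 of 103 UMIs of Rspo3, an amplifier of Wnt signalling known from central vein endothelium, and those 99 lay in 1 barcode with 118 UMIs of Ptprb. Without leukocyte barcodes the ratio of Ly6c2 was -0.33 and that of Mctp2 -0.23. These 2 values give no direction. No Crtc2-/- UMI of either gene was left, since the leukocyte barcodes also held 86 of 86 of Mctp2. All Crtc2+/+ members together held only 5 UMIs of Ly6c2 and 2 of Mctp2.

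Without those barcodes the 8 highest genes were Pcp4l1, Cxcl9, Cyp4b1, Clca3a1, Fos, Fbn1, Socs3 and Rgs16, at log2 ratios of 2.09 to 3.32, each with intervals apart. Cyp4b1, a cytochrome P450 that oxidises fatty acids, had 25 and 57 UMIs, or 21.5 (13.9 to 31.8) and 198 (150.0 to 257) CPM, a ratio of 9.2 (5.66 to 15.4), and was found in 15.6% and 53.8% of cells. Pcp4l1, a small protein related to the calmodulin regulator Pcp4, was at 7.75 (3.54 to 14.7) and 167 (123 to 221) and in 4.69% and 38.5% of cells. Cxcl9, a chemokine induced by interferon gamma, was at 41.3 (30.5 to 54.8) and 427 (355 to 510.0), with 48.8% of its Crtc2-/- UMIs in 1 cell. It was found in 15.6% and 43.6% of cells. Both Cyp4b1 and Cxcl9 were also higher in Stab2>=2 cells of either library than in Crtc2+/+ member cells, at 361 and 512 and 282 and 609.7. The higher Cyp4b1 of the Crtc2-/- member cells was spread over more cells than that of Cxcl9 or Fos.

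Among genes lower in the Crtc2-/- member cells, 7 of the 8 with the lowest ratio over all members were also among the lowest 8 without leukocyte barcodes. Adamtsl1, a secreted matrix protein of the ADAMTS-like family, had 201 UMIs or 173 (150.0 to 199) CPM in the Crtc2+/+ cells, in 27.3% of them, and no UMI in the Crtc2-/- cells. It was at least 16.6-fold lower there, taking 3 UMIs over the group for the count of 0, and at least 28.6-fold lower over all members. Nox4, an NADPH oxidase that makes hydrogen peroxide, was at 116 (97.5 to 138) and 3.47 (0.0880 to 19.4), a ratio of 0.0299 (0.000751 to 0.169). Igfbp5, another binder of insulin-like growth factors, was at 146 (124 to 169) and 6.95 (0.842 to 25.1), a ratio of 0.0478 (0.00574 to 0.175). Few member cells of the 2 libraries together carried Igfbp5. It was found in 20.3% of the group of 64 cells and 6.9% of the group led by Spp1. The groups led by Gfod1 and by Mal had no UMI of it. The interval of its ratio covers counting error only and leaves out this spread over few cells. In Stab2>=2 cells Igfbp5 was the other way round, at 6.56 (1.35 to 19.2) and 48.2 (41.9 to 55.1), so its lower level was not shared by them. Adamtsl1, Igfbp5 and Irx3 were highest in the group of 64 cells, Adamtsl1 at 310.0 CPM against 14.3 in the other groups, Igfbp5 at 241 against 28.6 and Irx3 at 83.6 against 21.4. Nox4 went the other way, at 16.4 CPM in the group of 64 against 150 in the other groups. It was highest in the group of 25 led by Gfod1, Kit and Angpt2, at 385 CPM.

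The rest of this set were a homeobox factor, a membrane collagen, a connexin and a protease. Irx3, the homeobox factor, was at 59.4 (46.2 to 75.2) in the Crtc2+/+ cells and had no UMI in the Crtc2-/- cells. It was at least 5.70-fold lower there, and at least 8.19-fold over all members, taking 3 UMIs for the count of 0. Col13a1, the membrane collagen, was at 76.6 (61.5 to 94.3) and 3.47 (0.0880 to 19.4), and in Stab2>=2 cells at 118 and 93.4. Gjc1, which encodes connexin 45, was at 73.2 (58.5 to 90.5) and 3.47 (0.0880 to 19.4). Adamts5, a protease of proteoglycans, had a log2 ratio of -2.50 without leukocyte barcodes and -2.70 over all members. Flrt2, a cell adhesion protein, had a ratio of -2.40 over all members and -2.25 without leukocyte barcodes. For each of these 8 genes over all members the intervals of the 2 libraries lay apart.

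The tumour capillary and tip cell list was lower in the Crtc2-/- members for 11 of 25 genes, with 0 higher and a median of -0.87, with the leukocyte barcodes included. Without them 2 of 25 were lower, 1 was higher, and the median was -0.33, against -0.07 for all genes. Esm1 was the gene above 1, at 1495 (1425 to 1567) and 3457 (3246 to 3679), a ratio of 2.31 (2.14 to 2.5). Igfbp3 was at 3949.9 (3836 to 4066) and 2359 (2185 to 2544), a ratio of 0.597 (0.550 to 0.648). Plvap had a ratio of 0.793 (0.711 to 0.883) and Aplnr of 1.4 (1.04 to 1.86), with 35.4% of the Crtc2-/- UMIs of Aplnr in 1 cell. Basement membrane genes had a median of -0.58 with 3 of 16 lower and 1 higher, and -0.11 with 0 lower and 1 higher of 15 without leukocyte barcodes.

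Capillary genes of fatty acid uptake were higher in the Crtc2-/- member cells for 3 of 11 with 1 lower and a median of 0.17, and without leukocyte barcodes for 5 of 11 with 0 lower and a median of 0.70. In Stab2>=2 cells the median of the list was 0.11. Among member cells the list was highest in the group of 58, at 17587 CPM against 12199.5 in the other groups, and that group held 22 of 39 Crtc2-/- cells. Cd36 was at 106 (88 to 126) and 403 (333 to 483) CPM, a ratio of 3.81 (2.93 to 4.95). Pparg, the nuclear receptor that drives Fabp4 and Cd36, was at 119.7 (101 to 141) and 278 (220.4 to 346), a ratio of 2.32 (1.74 to 3.08). Cav1 and Fabp5, another fatty acid chaperone, were at 377 (343 to 414) and 775 (677 to 884) and at 785 (735 to 838) and 1696 (1549 to 1853). The fifth gene, Lpl, which encodes lipoprotein lipase, rested on 1 cell with 87.5% of its Crtc2-/- UMIs. Fabp4 itself was at 8689 (8521 to 8861) and 14111 (13681 to 14552), a ratio of 1.62 (1.57 to 1.68).

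Sinusoidal genes were higher in the Crtc2-/- members for 5 of 14, with 0 lower and a median of 0.38, and for 1 of 11 without leukocyte barcodes, with a median of 0.52. That gene was Il6st, the shared signalling receptor of the interleukin-6 family, at 93.9 (77.1 to 113) and 226 (174 to 288). In the BMP and TGF-beta list 3 of 16 were higher and 1 lower over all members, and 2 higher and 1 lower without leukocyte barcodes. Bmp6 was at 37.9 (27.5 to 50.9) and 146 (105 to 197) and Smad6, an inhibitor of BMP signalling that BMP itself induces, at 19.8 (12.6 to 29.7) and 86.9 (56.2 to 128). Both were also above the Crtc2+/+ member cells in the Stab2>=2 cells, at 321 and 369 and 164 and 176. Thbd, the anticoagulant receptor thrombomodulin, was lower in the Crtc2-/- member cells, at 198 (173 to 225) and 55.6 (31.8 to 90.3), a ratio of 0.281 (0.158 to 0.466). Tek, the angiopoietin receptor on which Ptprb acts, was at 358 (325 to 394) and 159.8 (117 to 213), a ratio of 0.446 (0.322 to 0.606), and in Stab2>=2 cells at 433 and 402. Vegfc, a ligand of the VEGF receptors Flt4 and Kdr, was at 154 (132 to 178) and 410.0 (339 to 491), with 33.1% of its Crtc2-/- UMIs in 1 cell.

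The direction of the MHC class II genes depended on the leukocyte barcodes. Over all members 4 of 8 were higher in the Crtc2-/- library, with a median of 1.01, and without those barcodes 0 of 6 were higher and 5 lower, with a median of -1.25. Cd74, the invariant chain, was at 186 (162 to 213) and 48.6 (26.6 to 81.6) CPM without them and at 791 and 1491 over all members. Macrophage transcripts moved with it: their summed level was 730 and 2976 CPM over all members and 427 and 205 without the leukocyte barcodes. Of the Kupffer cell markers on the macrophage list, Vsig4, Timd4 and Marco had 0 UMIs in the members of both libraries, whereas Cd5l and Clec4f were detected. In the group of 17 leukocyte barcodes 11 of the 14 macrophage genes had a UMI. Among the groups without those barcodes, 10 of the 14 did in the group of 64. The part of macrophage transcripts in the remaining difference of MHC class II was not tested. Of the MHC class I genes 0 of 10 were past the ratio over all members, with a median of 0.17, and without leukocyte barcodes 0 were higher and 1 lower, with a median of 0.16. The lower one was Nlrc5, the transactivator of MHC class I, at 47.4 (35.7 to 61.6) and 13.9 (3.79 to 35.6). Of the interferon-stimulated genes 0 of 23 were past it in both analyses, with medians of -0.17 and 0.22.

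Immediate early genes, many of which are induced when tissue is dissociated, were above 0 over all members for all 15 measured. Of all 8943 genes measured 4046 were above 0. Past a log2 ratio of 1 were 5 of the 15 over all members and 4 without leukocyte barcodes, with medians of 0.55 and 0.80. The same list had a median of 1.0 in Stab2>=2 cells without leukocyte barcodes. Fos, a component of the AP-1 transcription factor, was at 140.4 (119.6 to 164) and 695 (602 to 798), and 1 cell held 52.5% of its Crtc2-/- UMIs. Cell cycle genes were lower in the Crtc2-/- members, 10 of 18 with 0 higher and a median of -1.02, and 8 of 17 with a median of -0.96 without leukocyte barcodes. Over the alternatives the median ran from -1.25 to -0.11, the last when each cell was thinned to 1000 UMIs. In Stab2>=2 cells the median was 0.31. Top2a, a topoisomerase of dividing cells, was at 79.2 (63.9 to 97.2) and 6.95 (0.842 to 25.1), and Mki67, the proliferation antigen Ki-67, at 69.7 (55.4 to 86.7) and 20.8 (7.65 to 45.4). Top2a had 92 and 2 UMIs and Mki67 81 and 6. The shares of cells with a UMI were closer for Top2a, 6.25% and 5.13%, than for Mki67, 7.03% and 2.56%. In the Crtc2+/+ library 1 cell held 24.7% of the Mki67 UMIs and in the Crtc2-/- library 1 cell held all. The group of 10 dividing cells held 9 of the 132 Crtc2+/+ and 1 of the 52 Crtc2-/- members. This is description only, since the group was defined on the same cells and genes.

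Transcripts of hepatocytes were counted beside these results. Of the hepatocyte list, 2 of 13 genes were higher in the Crtc2-/- members and 1 lower, and 5 of 13 higher and 1 lower without leukocyte barcodes. In Stab2>=2 cells without leukocyte barcodes 15 of 16 were higher and 0 lower, with a median of 2.25. Of all genes measured in those cells 1.27% were higher and 0.882% lower. The summed hepatocyte level was 497 and 761 CPM in member cells and 190 and 2155 in Stab2>=2 cells. Its part in the differences between populations and libraries was not tested. Spp1, which encodes osteopontin, was at 901 and 20.8, but 97.0% of its Crtc2+/+ UMIs lay in 1 cell.

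**Figure D5:**
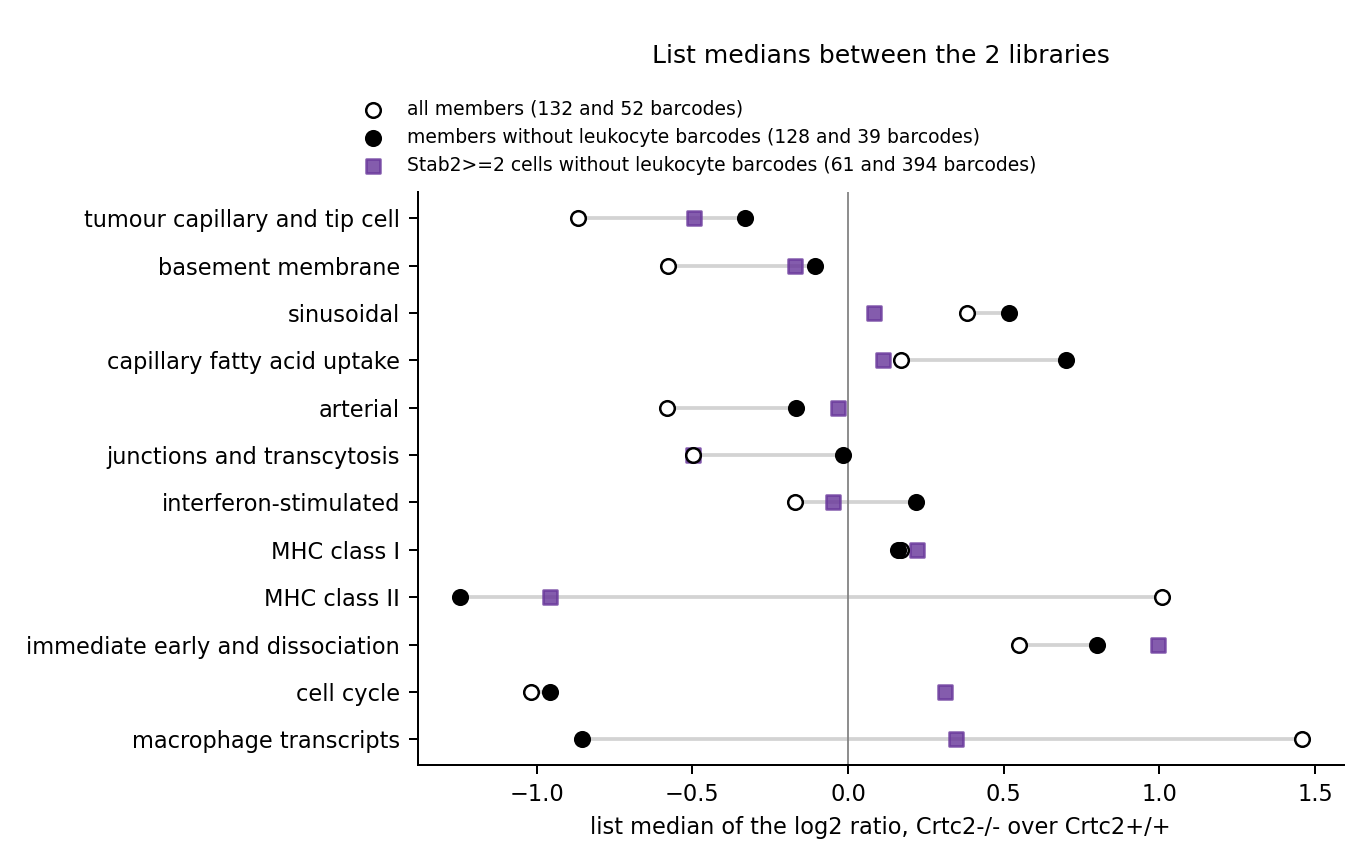
For 12 gene lists (y axis), the median log2 ratio of the Crtc2-/- over the Crtc2+/+ library (x axis) is shown for all members (open circles), for members without leukocyte barcodes (filled circles) and for Stab2>=2 cells without leukocyte barcodes (squares). The MHC class II median goes from 1.01 to -1.25 when the leukocyte barcodes are left out, and the cell cycle median stays at -1.02 and -0.96 while that of the Stab2>=2 cells is 0.31.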

How the data were processed

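The deposited files are 10x Chromium 3′ count matrices, UMI counts per gene and barcode, which the authors made with Cell Ranger 7.1.0 per the file headers. The submitters' processing notes also name Seurat and mm10, and no label says how the barcodes were chosen. Cell Ranger leaves out reads that map to several genes, so near-identical genes can be undercounted. Barcodes were kept with at least 500 UMIs, 250 genes and at most 20% mitochondrial UMIs, and doublet calls (Scrublet in scanpy 1.11.5, at a rate of 0.8% per 1000 barcodes, which called 2.68% and 2.92%) were kept. UMIs were summed by library and population, with numpy 2.4.6 and scipy 1.17.1. Log2 ratios added 10 CPM, genes needed 20 UMIs over the populations compared, and no test was made. A gene can pass that minimum through 1 population alone. Member cells were clustered with leidenalg 0.10.2 on 1000 variable genes, 15 components and 15 neighbours at a resolution of 0.5. The steps were tested on simulated data.

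Genes were named by rule: the 10 highest and 10 lowest ratios nearer to 0 in the 2 libraries, the 8 highest and 8 lowest between libraries, and up to 4 of each of 30 lists by size. The first sets needed 50 CPM, a UMI in 5% of cells, and 20% of the highest level in gated macrophages, T cells, B cells, neutrophils and hepatocyte-like cells, and sex-linked, ribosomal, mitochondrial and predicted genes were left out. Other genes in the text are defining members of a list, chosen with their values known. The members and lists were chosen with earlier results of these data known. Of 427 list genes 425 were in the files. Gene positions are from GENCODE M21 on GRCm38, which matched 32235 of 32285 gene IDs. The alternatives numbered 14, of which the one without leukocyte barcodes was chosen after seeing the data.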

Additional observations from a re-analysis of the deposited data

Results flagged for a closer look

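For 4 genes named by the lists, the difference between member cells and Stab2>=2 cells pointed one way in the Crtc2+/+ library and the other way in the Crtc2-/- library, by a log2 ratio of at least 1 each, over all members. Top2a, a topoisomerase of dividing cells, was higher in member cells by 1.27 in the Crtc2+/+ library, with a ratio of -1.90 in the Crtc2-/- library. Cdk1, the kinase that starts mitosis, went with it at 1.08 and -1.77. Albumin (Alb) had ratios of 1.38 and -2.13, and the retinol carrier Rbp4, also made by hepatocytes, 1.5 and -1.47. With 1 library per genotype the difference between the libraries was not tested for any of them. For Top2a the Crtc2-/- member cells held 2 UMIs without leukocyte barcodes. Without leukocyte barcodes Alb was at 45.9 and 763 CPM in Stab2>=2 cells and 142 and 212 in member cells of the Crtc2+/+ and Crtc2-/- libraries. Over all genes, 26 of 8764 reversed in this way.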

How the results depend on the processing

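Counts of genes past the ratio moved with the pseudocount, with depth and with the gates. Adding 1 CPM in place of 10 gave 346 genes higher in member cells than in Stab2>=2 cells and 707 lower in the Crtc2-/- members. Adding 50 gave 89 higher and 145 lower within libraries, and 234 higher and 49 lower between them. Thinning to 1000 UMIs, which left 2230 and 2059 genes measured, gave 74 higher and 124 lower within libraries and 84 and 222 between them. With no minimum on UMIs 767 genes were higher in the Crtc2-/- members, with at least 2 UMIs of Ptprb 180, and without leukocyte barcodes 114. The share of members was 1.09% in the Crtc2+/+ library with at most 2 C1q UMIs and to 0.371% in the Crtc2-/- library with at least 2 of Ptprb. Leaving out the leukocyte barcodes put Ly6c2 at -0.33 and Mctp2 at -0.23, with no Crtc2-/- UMI of either left and too few Crtc2+/+ UMIs to give a direction. The same step turned the MHC class II median (-1.25), and at least 2 UMIs of Ptprb turned that median to -1.99. The 20 named genes within libraries kept their direction in all 280 values, 26 of which moved beyond counting error. Of 208 values for the 16 between libraries 41 moved and 2 reversed. No paired analysis was possible because each genotype has 1 library. The 39 Crtc2-/- cells and their 287781 UMIs limit what can be seen: a gene under about 10.4 CPM there cannot be told from 0.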
